A study of Mus musculus with 24 samples.

Results

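The comparison described here asks whether a diet enriched in medium-chain triglycerides (MCT) changed hippocampal gene expression differently in 3xTg-AD mice, a model of Alzheimer's disease, and in B6129SF2/J wild-type (WT) mice. It rests on 15 of the 24 polyA RNA libraries of the study, chosen by their genotype and diet labels, each made from the hippocampus of 1 female mouse. The 4 groups were 3xTg mice on the MCT diet (n = 4), 3xTg mice on the control diet (n = 3), WT mice on the MCT diet (n = 4) and WT mice on the control diet (n = 4). Mice were 3 months old at the start and stayed on their diet for 6 months. Both diets held 70% carbohydrate, 10% protein and 4.1 kcal/g, and they differed in fat. The MCT diet had 10% medium-chain and 10% long-chain triglycerides, and the control diet had 20% long-chain triglycerides. The remaining 9 libraries came from 3xTg (n = 5) and WT (n = 4) mice on a carbohydrate-free diet with 90% long-chain triglycerides, called ketogenic below. They entered through the shared estimate of spread and through 1 comparison between diets.

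Medium-chain fatty acids are taken up into the portal blood and are readily oxidised in the liver to ketone bodies, even when carbohydrate is eaten. Ketone bodies enter the brain through monocarboxylate transporters and are burned in mitochondria, where they can spare glucose. Among its alleles, the 3xTg-AD line carries human APP and tau transgenes driven by mouse Thy1 regulatory sequence, so both transgenes are made mainly in neurons and Thy1 reads serve as a check of the genotype label.

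Thy1 went against the label in 2 of the 15 libraries. It had 22426, 23382, 28645 and 24816 normalised counts in the libraries labelled 3xTg MCT, and 27207, 21747 and 9189 in those labelled 3xTg control. It had 8002, 23048, 8137 and 7570 in those labelled WT MCT, and 7045, 6952, 7793 and 7713 in those labelled WT control. The third library labelled 3xTg control therefore had a Thy1 level close to that of WT libraries, and the second labelled WT MCT had one in the range of 3xTg libraries. App showed the same split, with 23524 and 30297 normalised counts in those 2 libraries, against 22877 to 25302 in the other libraries labelled WT and 29569 to 34566 in the others labelled 3xTg. Mapt, the tau gene, separated the genotypes less, with 6970 in the conflicting 3xTg control library and 7752 in the conflicting WT MCT library. Nothing was relabelled. The test was run with all libraries and again without those whose Thy1 lies on the wrong side of 15000 normalised counts, which leaves 13 of the 15 libraries and also drops 1 ketogenic library.

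The 15 libraries held 10078435 to 25810846 reads each and detected 15793 to 16338 genes. The deepest of the 15 was a 3xTg MCT library and the shallowest was a WT control library. Among the ketogenic libraries, the second 3xTg library was far shallower, with 2653427 reads and 14608 genes detected. The defining markers of hippocampal granule cells, pyramidal cells, interneurons and glia were present in each of the 15 libraries. Where the level of a cell type's genes differs in bulk tissue, fewer cells of a type and less RNA per cell cannot be told apart.

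With all libraries, no gene's response to the MCT diet passed the test for a difference between the genotypes. The tested quantity, called the interaction, is the log2 difference between MCT and control in 3xTg mice minus the same difference in WT mice, so a positive value means that the gene moved upward in 3xTg mice relative to its move in WT mice. Of 14162 genes tested with limma, 0 (0%) passed a Benjamini-Hochberg adjusted p under 0.05. At an unadjusted p under 0.05 there were 393 genes (2.78%), 222 of them (1.57%) with a positive and 171 (1.21%) with a negative interaction. edgeR's quasi-likelihood test and DESeq2 on the reads behind the values also called 0 genes, with 460 and 420 at an unadjusted p under 0.05. The p-values measure the spread between these mice, and the genes named next from this fit are values, not changes. Where the groups of a named gene are said not to overlap, the share of all genes with such groups was not counted. Genes picked by a small p tend to have groups that lie apart.

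Without the libraries whose Thy1 goes against the label, 2 of 14126 genes (0.0142%) passed, Pla2g4e and Eif3j2, both with a positive interaction. At an unadjusted p under 0.05 there were 348 genes (2.46%). In both genes the groups that differed were those of WT mice. They were low in WT mice on the MCT diet and high in WT mice on the control diet, and they were low on both diets in 3xTg mice. Eif3j2 averages too few counts for the rule by which genes are named here, and it is included because it was called, a choice made after its values were seen.

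Pla2g4e encodes a calcium-dependent N-acyltransferase of the cytosolic phospholipase family, which makes precursors of the N-acylethanolamine lipids. It lies on the minus strand at chr2:120166412-120245335 (GRCm38). It had 37.8, 28.2, 24.6 and 33.5 normalised counts in 3xTg MCT mice, against 28.7, 32.7 and 409 in 3xTg control mice. In WT MCT mice it had 39.4, 32, 21.0 and 34.2 normalised counts, against 250, 451, 206 and 200 in WT control mice. The WT groups did not overlap, and the 1 high 3xTg control value belongs to the library whose Thy1 goes against its label. Without the conflicting libraries the interaction was 3.05 ± 0.49 (SE) on the log2 scale, with an adjusted p of 0.0267 (limma). The response was 0.00 ± 0.37 in 3xTg mice and -3.05 ± 0.33 in WT mice. With all libraries the interaction was 1.81 ± 0.89, with an unadjusted p of 0.0524. The call was lost in edgeR's test (adjusted p = 0.742), with no filter on low genes (0.0779) and with the replicate number as a block (0.118), and 13 of 25 alternative settings kept it, with adjusted p-values from 0.00741 to 0.742.

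The sequence around the annotated start of Pla2g4e is shown because it belongs to a gene with a called difference. Beside it is that of Exd1, which had the smallest interaction p with all libraries among genes of the naming rule. Both run from 250 bases before to 50 bases after the RefSeq start on the minus strand of GRCm38.p6, and capitals mark matches to the motifs searched.
Pla2g4e, chr2:120245286-120245585: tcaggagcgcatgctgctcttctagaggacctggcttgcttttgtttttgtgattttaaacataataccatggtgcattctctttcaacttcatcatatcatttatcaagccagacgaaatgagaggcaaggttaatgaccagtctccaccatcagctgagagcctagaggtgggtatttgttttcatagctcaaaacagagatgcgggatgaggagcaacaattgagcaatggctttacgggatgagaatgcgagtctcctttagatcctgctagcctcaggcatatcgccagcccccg
Exd1, chr2:119547578-119547877: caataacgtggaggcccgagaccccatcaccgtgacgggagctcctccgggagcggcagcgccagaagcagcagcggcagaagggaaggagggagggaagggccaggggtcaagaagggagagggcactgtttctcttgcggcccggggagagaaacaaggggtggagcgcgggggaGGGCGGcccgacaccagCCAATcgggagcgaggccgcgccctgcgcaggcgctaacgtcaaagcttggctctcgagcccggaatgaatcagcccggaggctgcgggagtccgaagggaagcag
Both strands were searched for the TATA box TATAAA, held by 13.6% of 32851 mouse promoter windows of that length, for CCAAT (37.4%), for the GC box GGGCGG (35.7%), for the cyclic AMP element TGACGTCA (1.79%) and for the E box CACGTG (7.15%). The Exd1 window holds GGGCGG at window positions 178 to 183 and CCAAT at 195 to 199. That window also contains the annotated start of Chp1, on the plus strand at chr2:119547697, so these matches cannot be assigned to Exd1 alone. Chp1 had an interaction of -0.06 ± 0.08 without the conflicting libraries. None of the motifs occurs in the Pla2g4e window, which says only that these letters are not in it.

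Eif3j2 encodes a subunit of the translation initiation factor eIF3 and is nearly identical to Eif3j1, so its counts are uncertain, as reads may be split between the copies. It lies on the minus strand at chr18:43475418-43477796. It had 2.70, 1.69, 1.59 and 3.72 normalised counts in 3xTg MCT mice, against 3.31, 2.73 and 90.6 in 3xTg control mice. In WT MCT mice it had 1.64, 0, 2.10 and 2.01, against 48.3, 77.0, 57.0 and 36.7 in WT control mice. The high 3xTg control value is again the library whose Thy1 goes against its label, and the WT groups did not overlap. With the conflicting libraries left out, the interaction was 3.94 ± 0.65 (SE), with an adjusted p of 0.0267 (limma), from a response of -0.27 ± 0.49 in 3xTg mice and -4.21 ± 0.43 in WT mice. These values are on the log2(value + 1) scale, which understates differences of genes with so few counts. The call was lost in DESeq2 (adjusted p = 0.220), in edgeR's test and with the replicate number as a block (0.140), and 10 of 24 alternative settings kept it, with adjusted p-values from 0.0129 to about 1. Leaving out either 3xTg control library that remained ended both calls.

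Eif3j1, on the plus strand at chr2:122028546-122056598, ran the other way in WT mice. It had 167, 171, 128 and 163 normalised counts in 3xTg MCT mice, against 179, 142 and 24.8 in 3xTg control mice. Among WT mice, those on the MCT diet had 145, 145, 169 and 163, against 75.2, 25.2, 84.1 and 89.6 in WT control mice, and the WT groups did not overlap. Its interaction without the conflicting libraries was -1.38 ± 0.73, with an unadjusted p of 0.0723, so it did not pass.

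The ketogenic groups show where WT MCT mice stood apart. Pla2g4e had 187, 32.4, 21.4, 55.3 and 35.6 normalised counts in 3xTg ketogenic mice, and 222, 213, 444 and 510 in WT ketogenic mice. Eif3j2 had 43.8, 5.40, 1.95, 11.8 and 4.80 in 3xTg ketogenic mice, and 42.6, 43.5, 97.1 and 101 in WT ketogenic mice. The first 3xTg ketogenic library, the highest of its group in both genes, is the third whose Thy1 goes against its label. WT ketogenic mice thus lay in the range of WT control mice for Pla2g4e or above it, and no WT ketogenic value overlapped the WT MCT values in either gene. The MCT response was set against the ketogenic response in the same way, as MCT minus ketogenic in 3xTg mice minus MCT minus ketogenic in WT mice. With all libraries it passed for 0 of 14162 genes (0%; limma), with 349 (2.46%) at an unadjusted p under 0.05. Without the conflicting libraries it passed for 2 of 14126 (0.0142%), with 424 (3%) at an unadjusted p under 0.05. Those genes were Pla2g4e (3.20 ± 0.45, adjusted p = 0.00443, limma) and Eif3j2 (3.63 ± 0.58, adjusted p = 0.0195, limma). This comparison shares its MCT libraries with the main one and is no independent support.

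**Figure D1:**
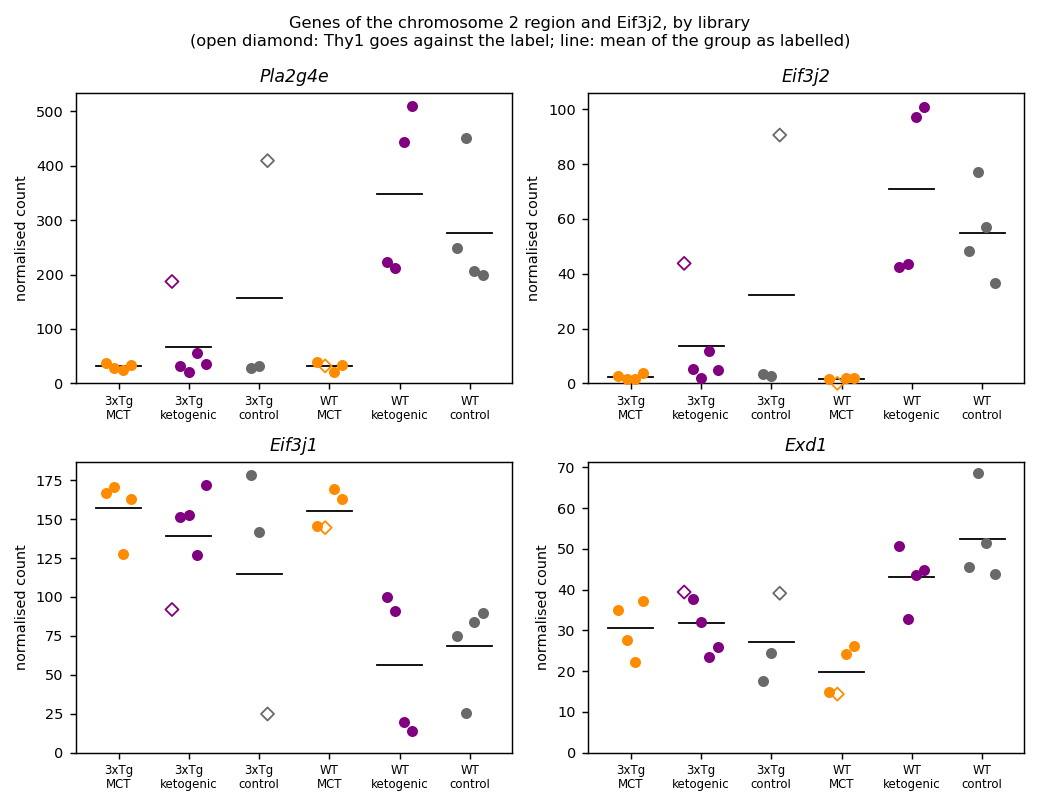
Normalised counts of Pla2g4e, Eif3j2, Eif3j1 and Exd1 in each library of the 6 groups, with 3xTg groups left of WT groups, lines at group means and open diamonds for libraries whose Thy1 goes against the label. WT MCT libraries held 21.0 to 39.4 counts of Pla2g4e, below all WT control libraries (200 to 451), and Eif3j1 ran the other way.

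Exd1, which encodes an exonuclease-domain protein of the piRNA pathway, lies near Pla2g4e on the minus strand at chr2:119516505-119547627. It had 35.1, 27.6, 22.2 and 37.2 normalised counts in 3xTg MCT mice, against 17.6, 24.5 and 39.1 in 3xTg control mice. The WT MCT mice showed 14.8, 14.3, 24.2 and 26.1, against 45.5, 68.6, 51.4 and 43.9 in WT control mice. The WT groups did not overlap and the 3xTg groups did. Its interaction was 1.59 ± 0.37 with all libraries (unadjusted p = 0.000228) and 1.75 ± 0.37 without the conflicting ones (adjusted p = 0.439, limma), so it did not pass in either fit.

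Because Pla2g4e and Exd1 lay close together, all tested genes within 5 Mb of the start of Pla2g4e were counted, a window chosen after the values were seen. Of 98 genes in it, 14 (14.3%) had an unadjusted p under 0.05 without the conflicting libraries, against 2.46% of all genes, 7 with a positive and 7 with a negative interaction, Pla2g4e and Exd1 included. The median interaction of the 98 genes was 0.01. With all libraries the count was 3 (3.06%), against 2.78% of all genes. Besides Pla2g4e and Exd1 the 14 included Mfap1b (-0.60 ± 0.20), which encodes a spliceosome protein and has a near-identical neighbouring copy, and Gatm (-0.39 ± 0.16), which encodes the enzyme of the first step of creatine synthesis. They also included Strc (-1.94 ± 0.82) and Pla2g4b (-2.03 ± 0.91), a second gene of the phospholipase cluster. With all libraries Strc had -1.03 and Pla2g4b -1.11, with unadjusted p of 0.262 and 0.226 (limma). The other positive genes of the 14 were Bmf (0.64 ± 0.31), Zscan29 (0.43 ± 0.18), Rpap1 (0.37 ± 0.16), Bloc1s6 (0.32 ± 0.13) and Ubr1 (0.19 ± 0.08). Mfap1b had 283, 307, 248 and 247 normalised counts in 3xTg MCT mice, against 277, 287 and 169 in 3xTg control mice. In WT MCT mice it had 259, 283, 256 and 253, against 198, 126, 200 and 194 in WT control mice. The WT MCT values lay within the range of the 3xTg mice and, as for Pla2g4e, did not overlap those of WT control mice.

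Fam227b, further along chromosome 2 at chr2:125983483-126152004, gave a related picture within WT mice, though it too averages few counts and was picked after its values were seen. It had 19.8, 18.6, 17.4 and 26 normalised counts in 3xTg MCT mice, against 29.8, 10.9 and 29.6 in 3xTg control mice. It had 4.11, 19.9, 2.10 and 2.01 normalised counts in WT MCT mice, against 13.9, 23.8, 19.6 and 12.5 in WT control mice. The 1 high WT MCT value is the library whose Thy1 goes against its label. The interaction without the conflicting libraries was 2.46 ± 0.56 (adjusted p = 0.828, limma), so it did not pass.

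The 20 leading genes with all libraries, 10 in each direction, had responses of opposite sign in the genotypes, and their interactions lay between -0.55 (Rpl28) and 1.59 (Exd1). Among genes of the naming rule, the 10 with the smallest p and a positive interaction were Exd1, Setd5, Vwa5b1, Notch1, Adamts17, Med1, Tgfb1i1, Fiz1, Tfcp2 and Zfp646. Each response was above 0 in 3xTg mice and below 0 in WT mice. Picking genes by a small interaction p favours such opposite signs, so they are no separate finding. None passed adjustment in the fit of all libraries, where the lowest adjusted p of any gene was about 1 (limma).

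Adamts17, a secreted metalloprotease, had 97.2, 93.7, 85.7 and 85.6 normalised counts in 3xTg MCT mice, against 65.0, 65.4 and 63.9 in 3xTg control mice. On the WT side, MCT mice had 68.2, 96.0, 96.8 and 82.4, against 101, 111, 99.1 and 72.6 in WT control mice. The 3xTg groups did not overlap and the WT groups did, and the interaction was 0.63 ± 0.19 with an unadjusted p of 0.00331. Vwa5b1 had the largest of these interactions after Exd1, 1.10 ± 0.33, with 50.4, 71.7, 78.5 and 50.2 normalised counts in 3xTg MCT mice, against 30.9, 47.2 and 33.4 in 3xTg control mice, which did not overlap. Its WT groups overlapped, at 40.3, 51.9, 58.9 and 64.3 in WT MCT mice and 104, 58.8, 72.9 and 49.3 in WT control mice.

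Fiz1, a zinc finger protein gene, had groups that were apart in both genotypes with opposite order. It had 216, 222, 200 and 229 normalised counts in 3xTg MCT mice, against 192, 188 and 185 in 3xTg control mice. WT MCT mice had 201, 199, 205 and 197, against 225, 234, 226 and 207 in WT control mice. The interaction was 0.35 ± 0.11, with an unadjusted p of 0.00501. Tgfb1i1, which encodes a focal adhesion adaptor, had 76.5, 64.3, 59.5 and 84.7 normalised counts in 3xTg MCT mice, against 49.6, 63.6 and 74.4 in 3xTg control mice. Its WT groups were apart and its 3xTg groups overlapped, with 72.3, 55.2, 67.3 and 53.3 in WT MCT mice, against 88.2, 106, 92.5 and 78 in WT control mice. Notch1, a receptor of cell to cell signalling, had an interaction of 0.36 ± 0.11, and that of Med1, a subunit of the Mediator complex, was 0.27 ± 0.08.

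The 10 genes of the naming rule with the smallest p and a negative interaction were Cox14, Tmem68, Prpf31, Vti1b, Cd302, Trmt5, Trappc4, Zfp963, Apex1 and Rpl28. Each response was below 0 in 3xTg mice and above 0 in WT mice, which the way of picking them again favours. Cox14, an assembly factor of cytochrome c oxidase, had 373, 374, 414 and 371 normalised counts in 3xTg MCT mice, against 457, 413 and 445 in 3xTg control mice. Among WT mice, those on the MCT diet had 438, 441, 443 and 473, against 402, 396, 394 and 427 in WT control mice. Only the WT groups were apart, and the interaction was -0.34 ± 0.10 with an unadjusted p of 0.00193.

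Trmt5, a transfer RNA methyltransferase, was apart in both genotypes, though only narrowly in 3xTg mice. It had 231, 233, 208 and 215 normalised counts in 3xTg MCT mice, against 234, 241 and 245 in 3xTg control mice. The WT MCT mice showed 242, 269, 223 and 232, against 212, 193, 207 and 208 in WT control mice. Its interaction was -0.35 ± 0.11. Vti1b, a SNARE protein of vesicle fusion, and Cd302, a C-type lectin receptor, were among the leading genes with and without the conflicting libraries, as were Exd1 and Tgfb1i1. Their interactions were -0.29 ± 0.09 and -0.45 ± 0.14 with all libraries and -0.31 ± 0.10 and -0.52 ± 0.15 without.

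**Figure D2:**
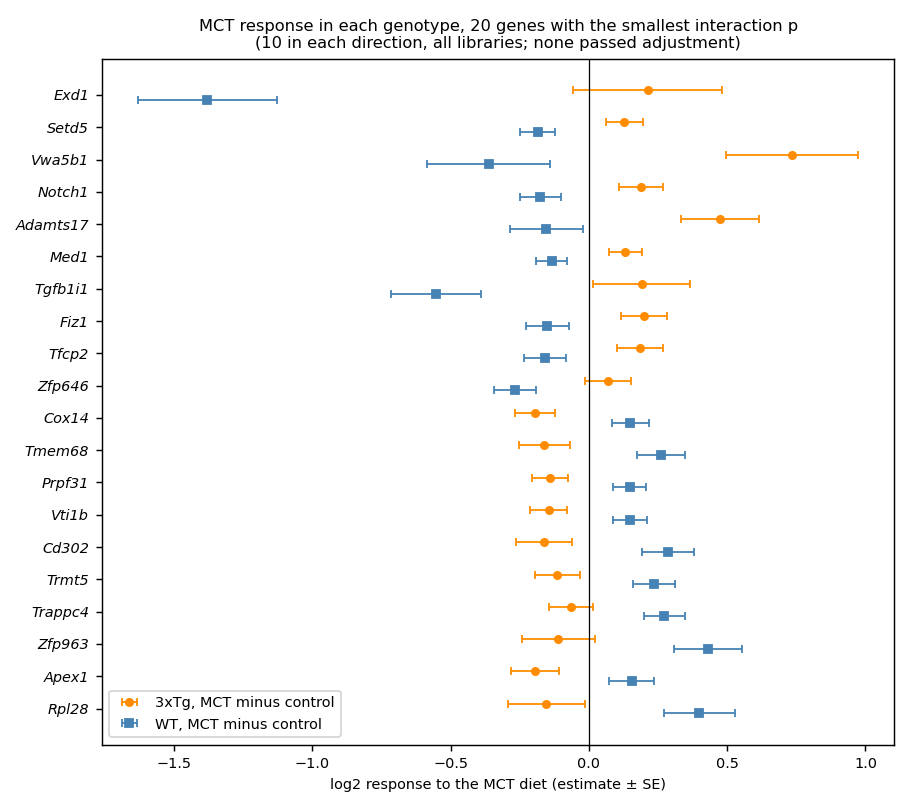
Estimated log2 response to the MCT diet (± SE) in 3xTg mice (circles) and WT mice (squares) for 20 genes, with all libraries. They are the 10 in each direction with the smallest interaction p among genes of the naming rule. Estimates lie on opposite sides of 0 in the genotypes, which picking by interaction p favours. The WT response of Exd1 (-1.38 ± 0.25) is the farthest from 0.

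With the conflicting libraries left out, the leading genes other than Pla2g4e and Exd1 had interactions between -0.71 (Pcdhb10) and 1.28 (Slc26a10). Trub1, a pseudouridine synthase, had the next smallest p among genes of the naming rule after Pla2g4e and Exd1. It had 404, 390, 399 and 383 normalised counts in 3xTg MCT mice, against 385, 365 and 372 in 3xTg control mice. On the WT side, MCT mice had 277, 419, 270 and 264, against 367, 387, 347 and 326 in WT control mice. The high WT MCT value is the library whose Thy1 goes against its label, and the other WT MCT values lay below each WT control value. The interaction was 0.47 ± 0.11 without the conflicting libraries (adjusted p = 0.886, limma) and 0.31 ± 0.15 with them.

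Arhgap24 (0.63 ± 0.17), a regulator of Rac signalling, Slc26a10 (1.28 ± 0.36), of an anion transporter family, and Colgalt2 (0.65 ± 0.21), a collagen galactosyltransferase, followed on the positive side. Zfp46, Nol9 and Txndc11 completed it with 0.35 to 0.38. On the negative side Pcdhb10 (-0.71 ± 0.21), a clustered protocadherin, led. It had 81.9, 87.5, 102 and 86.5 normalised counts in 3xTg MCT mice, against 114, 89.9 and 76.3 in 3xTg control mice. In WT MCT mice it had 95.3, 88.3, 93.6 and 97.5, against 64.0, 75.6, 59.8 and 63.6 in WT control mice, and the WT groups did not overlap. Med28, Rpl38, Ccdc149, Hnrnpc, Pacc1 and Dazap2 had interactions between -0.48 and -0.23, and none of these genes passed adjustment.

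No member of the 43 gene lists examined passed in either fit. The lists held 779 distinct tested genes, of which 28 (3.59%) had an unadjusted p under 0.05 with all libraries, against 2.78% of all genes. Lists are therefore described by the number of members with an interaction above or below 0 and by their median. Over all 14162 genes 53.4% were above 0, 46.6% were below 0, and the median was 0.01. Without the conflicting libraries 52.3% were above 0 and 47.7% below 0. Single libraries mattered for most list medians. In 40 of 43 lists at least 1 left-out library moved the median by over 1.5 times or turned its sign, and the exceptions were nuclear oxidative phosphorylation, mitochondrially encoded and Notch genes.

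**Figure D3:**
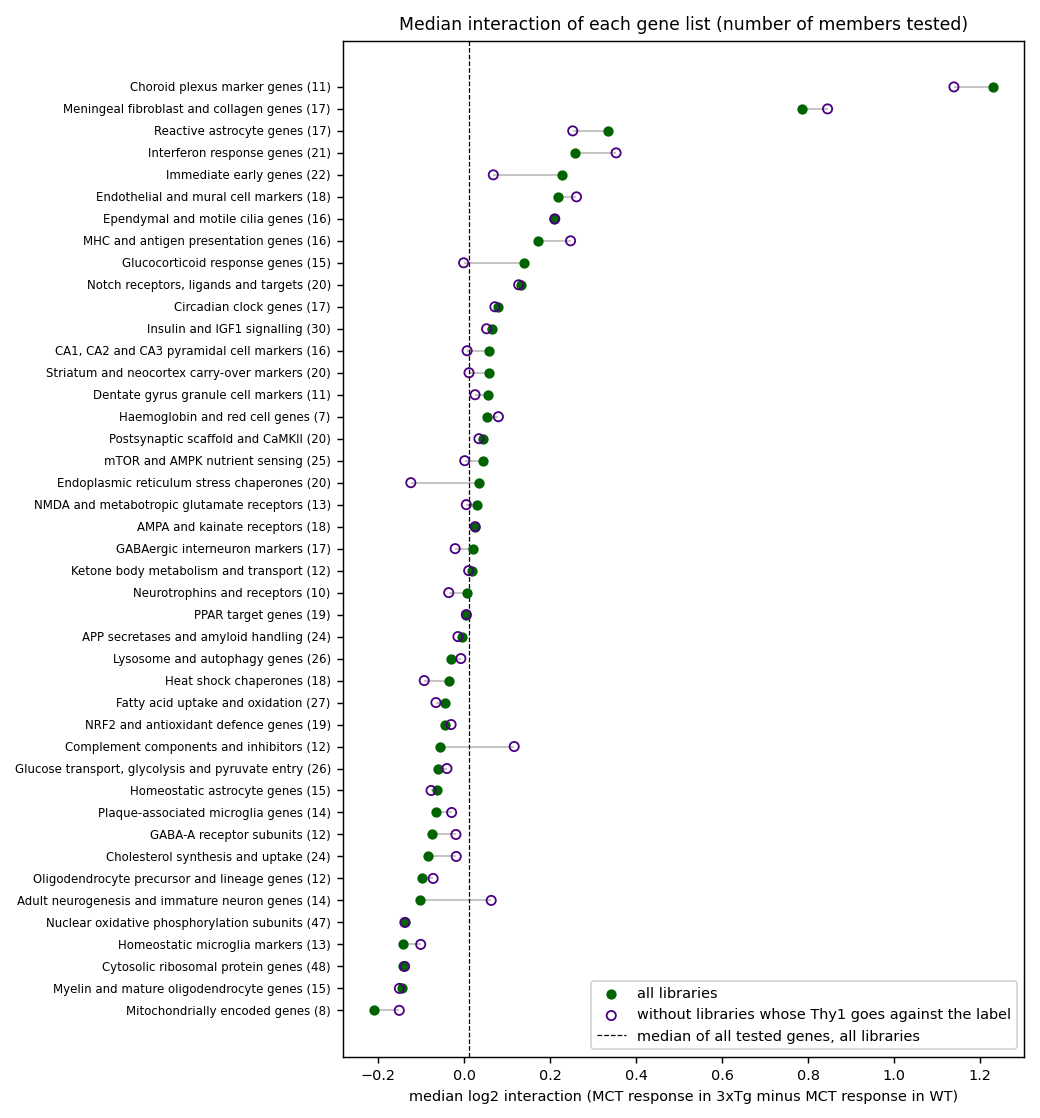
Median log2 interaction of each of 43 gene lists, with all libraries (filled) and without those whose Thy1 goes against the label (open), and the median of all tested genes as a dashed line. Choroid plexus (1.23) and meningeal genes (0.79) lie far to the right, and the filled points of the mitochondrial, ribosomal, myelin and homeostatic microglia lists lie at -0.21 to -0.14.

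Ketone body genes, which carry the most direct link to an MCT diet, had no shared direction. Of 12 members 6 were above and 6 below 0, with a median of 0.02 with all libraries and 0.01 without the conflicting ones. Oxct1, the enzyme that commits ketone bodies to oxidation, had 5736, 6088, 5837 and 5733 normalised counts in 3xTg MCT mice, against 5835, 5491 and 6040 in 3xTg control mice. WT MCT mice had 5534, 5805, 5463 and 5676, against 5090, 5088, 5419 and 5379 in WT control mice. WT values did not overlap, and the interaction was -0.08 ± 0.06. Acat1, which splits acetoacetyl-CoA, had an interaction of -0.13 ± 0.09. Bdh1, which oxidises beta-hydroxybutyrate, had one of 0.06 ± 0.10.

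The monocarboxylate transporter Slc16a1 had 556, 695, 714 and 847 normalised counts in 3xTg MCT mice, against 621, 725 and 993 in 3xTg control mice. Among WT mice, those on the MCT diet had 975, 735, 990 and 1005, against 936, 1132, 1166 and 1124 in WT control mice. Its interaction was 0.10 ± 0.24, from responses of -0.14 ± 0.18 in 3xTg mice and -0.24 ± 0.16 in WT mice, and both pairs of groups overlapped. The neuronal transporter Slc16a7 had an interaction of -0.05 ± 0.10. Hcar1, a lactate receptor with few counts, had the widest error, at 0.72 ± 1.0.

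**Figure D4:**
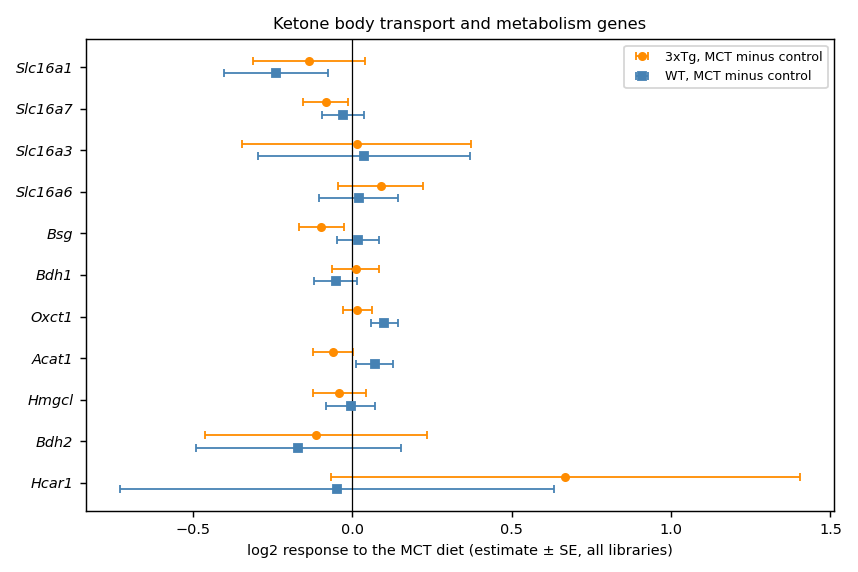
Log2 response to the MCT diet (± SE) of 11 ketone body transport and metabolism genes in 3xTg mice (circles) and WT mice (squares), with all libraries. For Slc16a1 the responses were -0.14 ± 0.18 in 3xTg mice and -0.24 ± 0.16 in WT mice, and Hcar1 has the widest errors.

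Other fuel lists were also near 0. Of 27 genes of fatty acid uptake and oxidation 18 were below 0, with a median of -0.04, and Hadh, a dehydrogenase of mitochondrial beta-oxidation, had -0.22 ± 0.11. Of 26 genes of glucose transport, glycolysis and pyruvate entry 15 were below 0, with a median of -0.06. Targets of the PPARs, nuclear receptors that fatty acids activate, were split 10 to 9 with a median of 0.00, and Pparg itself had 0.79 ± 0.36 (unadjusted p = 0.0368). Cholesterol synthesis and uptake genes were below 0 in 16 of 24, with a median of -0.08 that moved to -0.02 without the conflicting libraries.

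Genes of the respiratory chain and the ribosome lay on the negative side nearly throughout, by small amounts. Of 47 nuclear oxidative phosphorylation subunits 45 were below 0, with a median of -0.14, from median responses of -0.07 in 3xTg mice and 0.06 in WT mice. Without the conflicting libraries 44 of 47 were below 0 and the median was again -0.14. Sdhd, a membrane anchor of succinate dehydrogenase, had 1036, 1135, 1048 and 1042 normalised counts in 3xTg MCT mice, against 1130, 1043 and 1140 in 3xTg control mice. The WT MCT mice showed 1040, 1082, 1061 and 1105, against 928, 867, 925 and 994 in WT control mice. Its WT groups did not overlap and its interaction was -0.26 ± 0.10, with an unadjusted p of 0.0128. Ndufs7, a complex I subunit, had the same interaction, -0.26 ± 0.11.

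Of 48 cytosolic ribosomal protein genes 45 were below 0, with a median of -0.14 from -0.10 in 3xTg mice and 0.04 in WT mice, and 41 of 48 were below 0 without the conflicting libraries. The median was -0.08 without 3xTg control replicate 1 and -0.09 without WT MCT replicate 4. Rpl28 (-0.55 ± 0.19) and Rpl38 (-0.38 ± 0.14) led, and ribosomal protein genes have many processed pseudogenes, so their counts are uncertain. Of 8 tested mitochondrially encoded genes 7 were below 0, with a median of -0.21, which came to -0.03 under quantile normalisation. Members of a list share their libraries, so the count of members is no count of independent observations. The mean level of oxidative phosphorylation genes overlapped between the diets in both genotypes, as the plot of list levels shows.

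Myelin and mature oligodendrocyte genes were below 0 in 14 of 15, with a median of -0.14 that ran from -0.25 without 3xTg MCT replicate 2 to -0.05 without WT control replicate 2. Cnp, a myelin enzyme, had -0.26 ± 0.17. Their summed level ran from 73648 to 96791 normalised counts in 3xTg MCT mice and from 81697 to 93065 in 3xTg control mice. It ran from 62071 to 83047 in WT MCT mice and from 58727 to 79097 in WT control mice, so the diets overlapped in both genotypes. Homeostatic microglia markers were below 0 in 11 of 13, with a median of -0.14, which was -0.10 without the conflicting libraries. It ran from -0.22 without WT control replicate 3 to -0.07 without 3xTg control replicate 1. Homeostatic astrocyte genes were below 0 in 11 of 15, with a median of -0.06, and plaque-associated microglia genes in 8 of 14, also with a median of -0.06.

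The largest list medians belonged to genes of cells at the edge of the hippocampus. All 17 meningeal fibroblast and collagen genes were above 0, with a median of 0.79 from 0.18 in 3xTg mice and -0.57 in WT mice, and 0.84 without the conflicting libraries. Bmp6, a secreted growth factor, had 108, 67.7, 80.9 and 147 normalised counts in 3xTg MCT mice, against 47.4, 99.0 and 80.1 in 3xTg control mice. On the WT side, MCT mice had 95.3, 57.4, 53.7 and 64.3, against 132, 79.8, 80.4 and 142 in WT control mice. Both pairs of groups overlapped, and its interaction was 1.07 ± 0.43 with an unadjusted p of 0.0204.

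The summed meningeal level was 3483, 2079, 1727 and 3555 normalised counts in 3xTg MCT mice, against 2691, 2548 and 2390 in 3xTg control mice. It was 2959, 2534, 1521 and 2186 in WT MCT mice, against 2867, 3566, 2664 and 3318 in WT control mice. 3xTg MCT mice 1 and 4 were high and the other two low, so the group spans nearly the whole range of the 15 libraries. The list median ran from 0.51 without 3xTg MCT replicate 4 to 1.01 without replicate 2. Myh11, a smooth muscle myosin of mural cells, was highest in the same 2 mice, at 275, 125, 135 and 271 in 3xTg MCT mice, against 110, 99.9 and 135 in 3xTg control mice. Its values were 154, 152, 134 and 127 in WT MCT mice, against 185, 155, 138 and 195 in WT control mice. Its interaction was 0.95 ± 0.34, and 12 of 18 endothelial and mural markers were above 0, with a median of 0.22 that came to 0.10 without 3xTg control replicate 1. The part that meningeal and vessel tissue in the dissections played in these values was not tested.

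Choroid plexus markers rested on 1 library. Of 11 tested 10 were above 0, with a median of 1.23 from -0.06 in 3xTg mice and -1.46 in WT mice. Their summed level was 14567 normalised counts in the first WT control mouse, against 707 to 1055 in the other 14 libraries. Ttr, the most abundant of them, reached 11390 there. Without that library 7 of 11 were above 0 and the median was 0.35.

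Interferon, antigen presentation and reactive astrocyte genes had medians above 0 that were lower without the first 3xTg MCT library. Of 21 interferon response genes 17 were above 0, with a median of 0.26, but it was 0.08 without the first 3xTg MCT library, whose summed level was 2698 normalised counts. The other 3xTg MCT mice had 2042, 1605 and 1941, against 1558, 1811 and 1761 in 3xTg control mice. WT MCT mice had 1682 to 1925 and WT control mice 1716 to 1754. Trim30a had 0.57 ± 0.37 and Ifit2 0.28 ± 0.17.

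Of 17 reactive astrocyte genes 13 were above 0, with a median of 0.33, which was 0.25 without the conflicting libraries and 0.20 without the first 3xTg MCT library. Emp1 led with 1.05 ± 0.43. It had 40.5, 35.5, 29.3 and 44.7 normalised counts in 3xTg MCT mice, against 20.9, 33.6 and 22.9 in 3xTg control mice. Among WT mice, those on the MCT diet had 38.6, 11.0, 30.5 and 26.1, against 44.5, 25.2, 36.5 and 36.7 in WT control mice, and both pairs overlapped. The highest 3xTg MCT values of Emp1 were in mice 1 and 4, the mice high in meningeal genes. Cp, the member with the next smallest p, was also highest in those mice, at 360, 242, 218 and 420 in 3xTg MCT mice. MHC and antigen presentation genes were above 0 in 12 of 16, with a median of 0.17 that came to 0.06 without the first 3xTg MCT library. Notch receptors, ligands and targets were above 0 in 17 of 20, with a median of 0.13 in both fits.

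**Figure D5:**
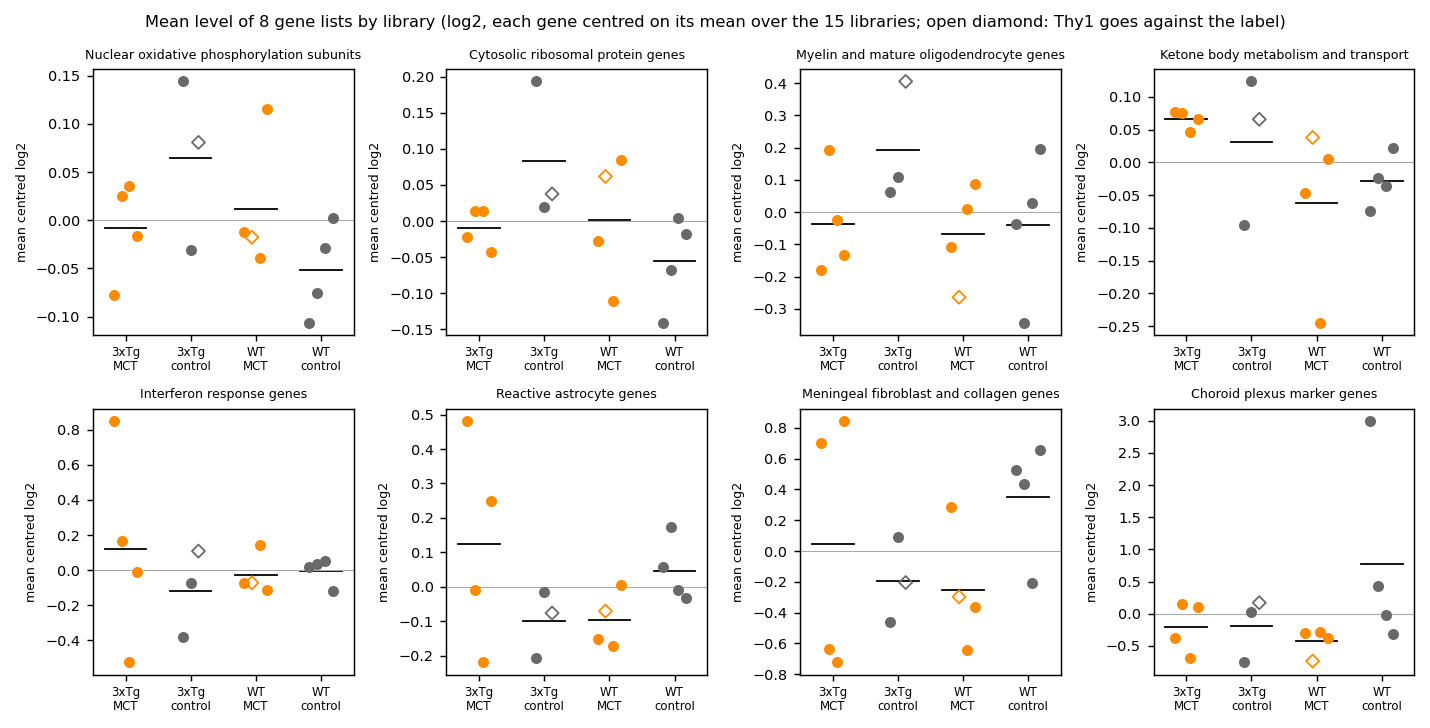
Mean log2 level of 8 gene lists in each of the 15 libraries, each gene centred on its mean, with MCT left of control within 3xTg and within WT, lines at group means and open diamonds for libraries whose Thy1 goes against the label. Choroid plexus markers are high in 1 WT control library, and meningeal genes are high in 2 of the 4 3xTg MCT libraries and low in the other two.

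Some list medians moved in sign or size with the conflicting libraries. Of 20 endoplasmic reticulum stress chaperones 13 were above 0 with all libraries, with a median of 0.03, and all 20 were below 0 without the conflicting ones, with a median of -0.12. Immediate early genes, which neuronal activity induces, were above 0 in 18 of 22 with a median of 0.23 with all libraries, and in 12 of 22 with a median of 0.07 without. Glucocorticoid response genes had medians of 0.14 with all libraries and -0.00 without, and adult neurogenesis genes -0.10 and 0.06.

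Neuronal lists lay close to the median of all genes. Granule cell markers, CA1 to CA3 pyramidal markers and carry-over markers of striatum and neocortex each had a median of 0.06 with all libraries. AMPA and kainate receptors had 0.02 and NMDA and metabotropic receptors 0.03. GABA-A receptor subunits were below 0 in 10 of 12 with a median of -0.08, and -0.02 without the conflicting libraries. Insulin and IGF1 signalling genes were above 0 in 24 of 30 with a median of 0.06, led by Igfbp5 (0.25 ± 0.10), an IGF-binding protein. Among mTOR and AMPK genes Tsc2, an inhibitor of mTOR, had 0.21 ± 0.09, and it had 1706, 1508, 1543 and 1648 normalised counts in 3xTg MCT mice, against 1293, 1476 and 1349 in 3xTg control mice. In WT MCT mice it had 1658, 1562, 1500 and 1555, against 1533, 1594, 1480 and 1616 in WT control mice. Its 3xTg groups did not overlap and its WT groups did.

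Among heat shock chaperones, split 8 above and 10 below 0, Hspa8 stood out. This constitutive chaperone had 5817, 6289, 6427 and 7048 normalised counts in 3xTg MCT mice, against 6795, 6057 and 5288 in 3xTg control mice. The WT MCT mice showed 6435, 5724, 6160 and 6820, against 3649, 2028, 3988 and 5828 in WT control mice. The WT control values were low in 3 of 4 mice, and the interaction was -0.71 ± 0.28 with an unadjusted p of 0.0174. Hspa8 has processed pseudogenes, so its count is uncertain. Genes of APP secretases and amyloid handling were split 11 above and 13 below 0, with a median of -0.01.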

How the data were processed

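PolyA RNA libraries of hippocampus were made from 500 ng of RNA with 11 PCR cycles, per the labels' protocols. The submitters' processing notes name Trimmomatic, STAR and build GRCm38; for counting, none is given in the sources used here. What the authors deposited is 1 table of normalised counts (21793 genes, 24 libraries), a count signal divided by a factor per library. Dividing by each library's step gave whole reads for 100% of values (tolerance 0.01). Normalised counts were analysed as log2(value + 1), for genes with 10 or more in at least 3 libraries. limma 3.58.1 (R 4.3.3) fitted 6 group means with a mean-dependent prior, and contrasts gave the interactions, with Benjamini-Hochberg adjustment over all genes. edgeR 4.0.16 and DESeq2 1.42.0 on recovered reads were alternatives. Genes named had a mean of 32 or more and, where fewer than 10 were called in a direction, the smallest p, and the 2 members of smallest p in each list. Gene lists, rules and the genes described were chosen with earlier results of these data known. Replicate numbers were not treated as pairs: 5 of 21 same-numbered pairs correlated over 0.1 (-0.18 to 0.25). No 2 compared libraries of a group agreed within sampling noise (lowest chi-square per degree of freedom 3.49). Positions come from GENCODE on GRCm38 and sequences from RefSeq. Some items are not reported here. The code was tested on simulated data.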

Additional observations from a re-analysis of the deposited data

Results flagged for a closer look

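Single libraries stood far from the rest of their group in 13 of 120 groups of values tested. These covered reads and 39 genes picked by small interaction p or after their values were seen, and the genes share libraries. The rate of about 1 in 20 that chance gives for unselected values is therefore no yardstick. All flagged libraries belong to groups of 4, namely 3xTg MCT, WT MCT and WT control. The 3xTg control group (n = 3) does not appear, so the list gives no result for it. Its absence is not evidence that its libraries lay close together. Pla2g4e was 409 in 3xTg control replicate 3, against 28.7 and 32.7 in the other 3xTg control libraries. The second WT control library had the fewest reads of its group, 10078435 against 15379787 to 16111390 in the other WT control libraries. Eif3j1 in that library was 25.2 normalised counts against 75.2 to 89.6, Mfap1b 126 against 194 to 200, and Zfp46 556 against 509 to 513. In the second WT MCT library, whose Thy1 goes against its label, Trub1 was 419 against 264 to 277 and Eif3j2 was 0 against 1.64 to 2.10. In WT MCT replicate 4 Med1 was 1152 against 1257 to 1269 and Cox14 was 473 against 438 to 443. Med1 was 1208 in WT control replicate 4, against 1389 to 1417, and Zfp963 was 113 in the first WT MCT library, against 137 to 138. Among 3xTg MCT libraries, Cox14 was 414 in the third, against 371 to 374, Eif3j1 was 128 in the third, against 163 to 171, and Txndc11 was 385 in the first, against 355 to 359.

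The interaction passed for Pla2g4e (3.05) and Eif3j2 (3.94), without the libraries whose Thy1 goes against the label. In both genes WT mice on the MCT diet were low, and WT mice on the control and ketogenic diets were high. Whether a difference other than diet between these WT mice played a part was not tested.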

How the results depend on the processing

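With all libraries, each of the alternatives (other pseudocounts, filters, scalings, tests, replicate block, library weights, each library left out) called 0 genes in the interaction, except leaving out the libraries whose Thy1 goes against the label, which gave 2. Leaving out 1 library moved the count at an unadjusted p under 0.05 between 228 (without the first 3xTg control library) and 843 (without the second). Without the conflicting libraries the 2 calls became 0 with no filter, 0 with edgeR, 0 with the replicate block, 1 with a mean of 50 or more and 1 with DESeq2. Leaving out 1 library gave 0 to 2 calls, with 0 in 9 of 14 cases (without 3xTg MCT replicate 1 or 4, 3xTg control 1 or 2, WT MCT 3 or 4, or WT control 1, 2 or 3) and 1, Pla2g4e, without WT MCT replicate 1. The cause was not tested. The MCT minus ketogenic interaction gave 1 call with DESeq2 (Prg4, named after its values were seen) and 2 without the conflicting libraries. With all libraries it gave 0 calls in each left-out library and 0 with the replicate block, which were not run for it without the conflicting libraries. The block rests on replicate numbers, and the labels do not say whether these pair the mice. Neither called gene changed sign under these alternatives. Of 43 list medians, 28 kept their sign in each alternative. Few reads lie behind Eif3j2 in WT MCT mice, at 0 to 2.10 normalised counts.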

Other observations

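Genes of motile cilia and of complement had further values. Of 16 ependymal and motile cilia genes 11 were above 0 in the interaction, with a median of 0.21 that ran from 0.06 without 3xTg MCT replicate 2 to 0.36 without 3xTg control replicate 3. Hydin, a ciliary protein, had 29.7, 59.8, 45.2 and 43.7 normalised counts in 3xTg MCT mice, against 44.1, 26.3 and 42.0 in 3xTg control mice. It had 45.2, 29.8, 31.6 and 59.3 in WT MCT mice, against 63.1, 63.0, 55.1 and 65.4 in WT control mice, and its interaction was 0.85 ± 0.40. Complement components and inhibitors were below 0 in 7 of 12, with a median of -0.06 that was 0.12 without the conflicting libraries. Serping1, the inhibitor of the first complement component, had 103, 43.4, 53.9 and 91.2 normalised counts in 3xTg MCT mice, against 40.8, 57.2 and 44.8 in 3xTg control mice. It had 61.6, 51.9, 48.4 and 49.3 in WT MCT mice, against 69.6, 63.0, 51.4 and 87.8 in WT control mice. Its interaction was 0.87 ± 0.37, and 3xTg MCT mice 1 and 4, high in meningeal genes, were again the highest of their group. None of these genes passed adjustment.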
